A study of Mus musculus with 34 samples.

Results

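The plaque-associated microglia genes examined here are 31 genes of the disease-associated microglia programme, chosen by gene symbol from the 55385 genes of the deposited tables. Chemokines, cathepsins and the genes of the Trem2 signalling axis were kept apart as separate lists. All 31 symbols matched a row, and 29 passed the filter on low counts that left 17518 genes for testing. Lilrb4a, an inhibitory immunoglobulin-like receptor, and Atp6v0d2, a subunit of the proton pump of lysosomes, did not pass it.

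Hippocampal RNA of 34 mice, all aged 6 months, was sequenced. Wild-type animals were C57BL/6J, and the other genotypes were Dp16, 5xFAD and 5xFAD-Dp16. Dp16 mice carry an extra copy of a segment of chromosome 16 that is orthologous to part of human chromosome 21, and none of the 31 genes lies on that chromosome. 5xFAD mice carry human transgenes with familial Alzheimer mutations, which the neuronal Thy1 promoter drives, and they form amyloid plaques while the mouse genes stay in place. Each genotype was given either tofacitinib, a Janus kinase inhibitor, at 15 mg/kg or the vehicle, 0.5% methylcellulose (called sham), daily for a month by gavage, so animals of both arms were gavaged. There were 5 wild-type animals on sham and 5 on tofacitinib, 3 and 5 Dp16 animals, 4 and 5 5xFAD animals, and 3 and 4 5xFAD-Dp16 animals. Both sexes were present in each group, with 16 females and 18 males in all. The labels do not say whether animals of a group shared a litter or cage.

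Microglia are the resident macrophages of the brain. Those that touch amyloid plaques are known to switch, largely through the receptor Trem2, from a homeostatic state to one with high expression of phagocytic receptors, lysosomal proteins and lipid-handling genes, and the genes studied here are markers of that state. They were described in sorted or single microglia. In RNA from whole tissue, more microglia and more RNA of a gene per microglial cell cannot be told apart, and some of these genes are also expressed by neurons, astrocytes or the choroid plexus.

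The labels were first checked against the data. The mean log2 CPM (counts per 1000000 of the TMM-scaled library of tested genes) of 104 tested genes of the segment, App left out, lay between 3.75 and 4.02 in the 15 libraries labelled with it and between 3.17 and 3.49 in the other 19. Thy1, whose promoter is part of the transgenes, lay between 966.7 and 2875 CPM in the 16 transgenic libraries and between 782.0 and 934.4 CPM in the other 18. Library totals ran from 14.9 M to 21.1 M counts. Defining microglial genes (Csf1r, Cx3cr1) were detected in every library. Mean log2 levels of 12 hippocampal neuron markers, 5.79 in the median library, were 3.00 in wild-type tofacitinib 3, 3.55 in 5xFAD tofacitinib 2 and 3.41 in 5xFAD-Dp16 sham 4. 5xFAD-Dp16 tofacitinib 1 stood at 5.24, with raised markers of thalamus (5.40) and striatum (4.78). Choroid plexus markers ranged over the libraries from 0.43 to 6.92 on that scale. Values without these libraries are given below for the named results that leaned on them.

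Promoters of 25 of the 31 genes were in the RefSeq sequence table, and Lilrb4a, Cd52, Atp6v0d2, Slc15a3, Lpl and Cox6a2 were not matched. The 250 bases before the RefSeq transcription start (build GRCm38.p6) are shown for the 5 genes whose transgenic and non-transgenic animals did not overlap (Cst7, Clec7a, Cd68, Cd180 and Mpeg1) and for Itgax, the third largest increase. Each is written 5′ to 3′ on the strand of its gene, with matches to the motifs named after them in capitals. The windows are chr2:150570165-150570414 (Cst7, plus strand), chr6:129472780-129473029 (Clec7a, minus strand), chr7:128129300-128129549 (Itgax, plus strand), chr11:69666171-69666420 (Cd68, minus strand), chr13:102693297-102693546 (Cd180, plus strand) and chr19:12460520-12460769 (Mpeg1, plus strand).
Cst7: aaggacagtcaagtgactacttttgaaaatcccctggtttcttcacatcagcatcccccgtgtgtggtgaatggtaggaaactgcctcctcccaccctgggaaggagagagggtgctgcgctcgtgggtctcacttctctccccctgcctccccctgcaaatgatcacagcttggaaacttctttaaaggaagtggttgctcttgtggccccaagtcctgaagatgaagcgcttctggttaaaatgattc
Clec7a: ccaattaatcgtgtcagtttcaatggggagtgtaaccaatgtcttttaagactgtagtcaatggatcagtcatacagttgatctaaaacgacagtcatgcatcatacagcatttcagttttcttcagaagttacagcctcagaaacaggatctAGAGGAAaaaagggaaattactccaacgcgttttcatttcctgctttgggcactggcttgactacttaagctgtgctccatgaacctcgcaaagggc
Itgax: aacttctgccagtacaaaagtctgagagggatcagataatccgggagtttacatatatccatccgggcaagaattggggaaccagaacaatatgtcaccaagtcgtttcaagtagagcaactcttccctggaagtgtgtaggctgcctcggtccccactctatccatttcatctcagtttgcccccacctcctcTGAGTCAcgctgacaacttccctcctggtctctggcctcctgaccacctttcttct
Cd68: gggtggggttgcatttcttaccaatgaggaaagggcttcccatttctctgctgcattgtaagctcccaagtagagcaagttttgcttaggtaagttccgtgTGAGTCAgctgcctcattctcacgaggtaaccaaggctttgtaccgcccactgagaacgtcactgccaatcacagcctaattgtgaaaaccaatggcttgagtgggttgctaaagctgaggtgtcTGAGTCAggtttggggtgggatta
Cd180: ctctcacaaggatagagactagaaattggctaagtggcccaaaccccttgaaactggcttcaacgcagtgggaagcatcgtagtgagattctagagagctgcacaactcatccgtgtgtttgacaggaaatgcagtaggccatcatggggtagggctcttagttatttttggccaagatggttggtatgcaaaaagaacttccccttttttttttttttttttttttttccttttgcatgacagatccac
Mpeg1: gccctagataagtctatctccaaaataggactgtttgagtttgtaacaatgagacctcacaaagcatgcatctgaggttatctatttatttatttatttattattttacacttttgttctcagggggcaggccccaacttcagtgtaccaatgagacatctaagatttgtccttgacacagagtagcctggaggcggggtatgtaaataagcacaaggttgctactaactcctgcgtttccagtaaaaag
In all, 5 motifs were searched on both strands: the AP-1 element TGANTCA, the ETS elements AGAGGAA and GAGGAAGT, which overlap in part and which PU.1 can bind, and the E-boxes CACGTG and TCACGTG, of which the second contains the first. AP-1 elements stood in 5 of the 19 matched windows of genes that rose in transgenic animals (26.3%): those of Itgax, Cd84, Igf1, Cybb and, with 2 matches, Cd68. Of all 27025 promoter windows of this length, 6.87% held one. AGAGGAA stood in 1 of the 19 (Clec7a) against 8.65% of all. GAGGAAGT, CACGTG and TCACGTG stood in 0 of the 19, against 2.44%, 6.05% and 3.15% of all. Those 19 were picked by their result. Of all 25 matched members, AP-1 elements stood in 5, AGAGGAA in 2 (Clec7a and Cd63), GAGGAAGT in 1 (Spp1) and either E-box in 0. In the Itgax window the AP-1 match begins 56 bases before the start, and in the Cd68 window the matches begin 149 and 24 bases before it, while the Cst7, Cd180 and Mpeg1 windows hold no match to any of the motifs. These counts describe letters in short windows and were not tested.

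Averaged over the 4 settings (without or with the segment, on sham or tofacitinib), 21 of the 29 tested genes were higher in transgenic than in non-transgenic animals and none was lower (edgeR quasi-likelihood test, adjusted p under 0.05). Of all genes tested 1.59% were called higher and 0.00571% lower. The log2 fold change was above 0 for 28 of the 29, beside 50.7% of all genes, and its median was 1.03, beside 0.00 over all genes. By role, 10 of 10 tested surface receptors rose, 4 of 6 secreted proteins, 4 of 6 lysosomal and phagosomal proteins, 1 of 5 genes of lipid, iron, mineral and energy metabolism, and both of the remaining pair, Capg and AU020206. The list was drawn from studies of such models and with results of these animals known, so its direction here is not independent evidence. The filter on low counts also keeps a gene that is high in only a few libraries. Genes near 0 in non-transgenic animals, such as Cst7, could therefore be tested because of their transgenic levels.

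**Figure D1:**
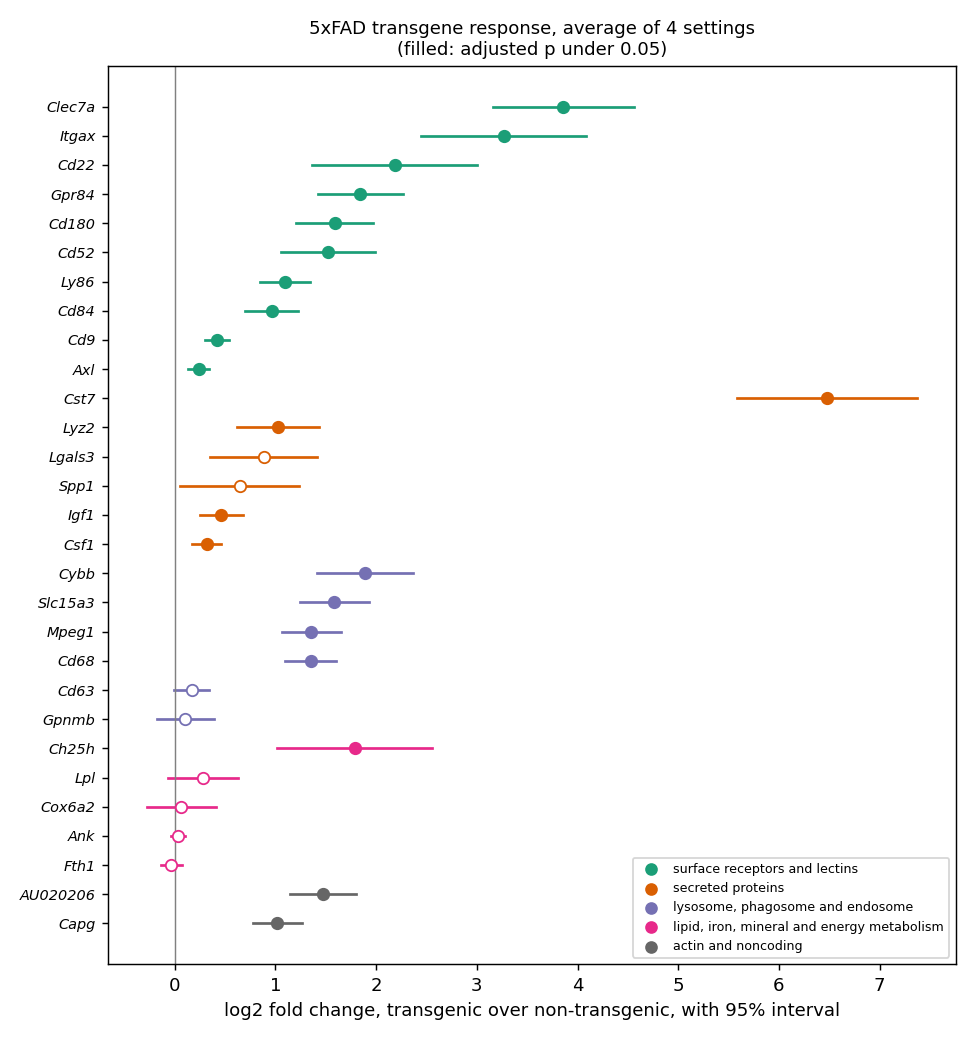
Log2 fold change of each tested gene, transgenic over non-transgenic animals, averaged over the 4 settings (x axis), with its 95% interval and coloured by role; filled points passed an adjusted p of 0.05. Cst7 stands apart at 6.48, most genes lie between 0.24 and 3.86, and the open points lie between -0.03 and 0.88.

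Cst7 encodes cystatin F, a secreted inhibitor of cysteine proteases that acts on lysosomal cathepsins (ENSMUSG00000068129.5, chr2:150570415-150578944, plus strand). Its level was 24.1, 48.1, 40.3 and 4.47 CPM in 5xFAD sham animals 1 to 4, and 22.8, 6.77, 38.3, 36.6 and 6.59 CPM in 5xFAD tofacitinib animals 1, 2, 4, 5 and 6. It was 13.6, 14.7 and 2.25 CPM in 5xFAD-Dp16 sham animals 1, 2 and 4, and 16.7, 19.0, 21.4 and 11.7 CPM in 5xFAD-Dp16 tofacitinib animals 1 to 4. The 18 non-transgenic animals lay between 0 and 0.823 CPM with a median of 0.177, so the lowest transgenic animal was above the highest of them. Non-transgenic libraries held at most 12 counts of Cst7, and transgenic ones up to 930. The average increase was 6.48 ± 0.46 (SE) on the log2 scale, 89.2-fold (adjusted p = 6.11e-10, edgeR).

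Clec7a encodes Dectin-1, a phagocytic receptor for beta-glucans (ENSMUSG00000079293.11, chr6:129461591-129472779, minus strand; GENCODE classes it as a polymorphic pseudogene). It measured 11.9, 23.4, 14.0 and 3.28 CPM in 5xFAD sham animals, and 14.9, 2.72, 14.3, 19.4 and 4.77 CPM in 5xFAD tofacitinib animals. In 5xFAD-Dp16 animals it measured 5.80, 10.7 and 2.36 CPM on sham and 13.6, 9.71, 10.04 and 6.25 CPM on tofacitinib. The non-transgenic animals lay between 0.0480 and 1.52 CPM, again without overlap, and the average increase was 3.86 ± 0.36 (SE) on the log2 scale (adjusted p = 9.77e-08).

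Itgax encodes the integrin alpha chain of CD11c, a surface protein of dendritic cells and of plaque-associated microglia (chr7:128129547-128150657, plus strand). It measured 6.82, 8.80, 8.82 and 0.509 CPM in 5xFAD sham animals, and 4.92, 2.03, 12.3, 7.25 and 1.29 CPM on tofacitinib. In 5xFAD-Dp16 animals it measured 2.57, 5.20 and 0.384 CPM on sham and 1.965, 6.13, 2.93 and 2.47 CPM on tofacitinib. Of the 16 transgenic animals, 14 were above the highest non-transgenic one (0.821 CPM), and the exceptions were 5xFAD sham 4 and 5xFAD-Dp16 sham 4. The increase was 3.27 ± 0.42 (SE) on the log2 scale (adjusted p = 9.53e-06).

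**Figure D2:**
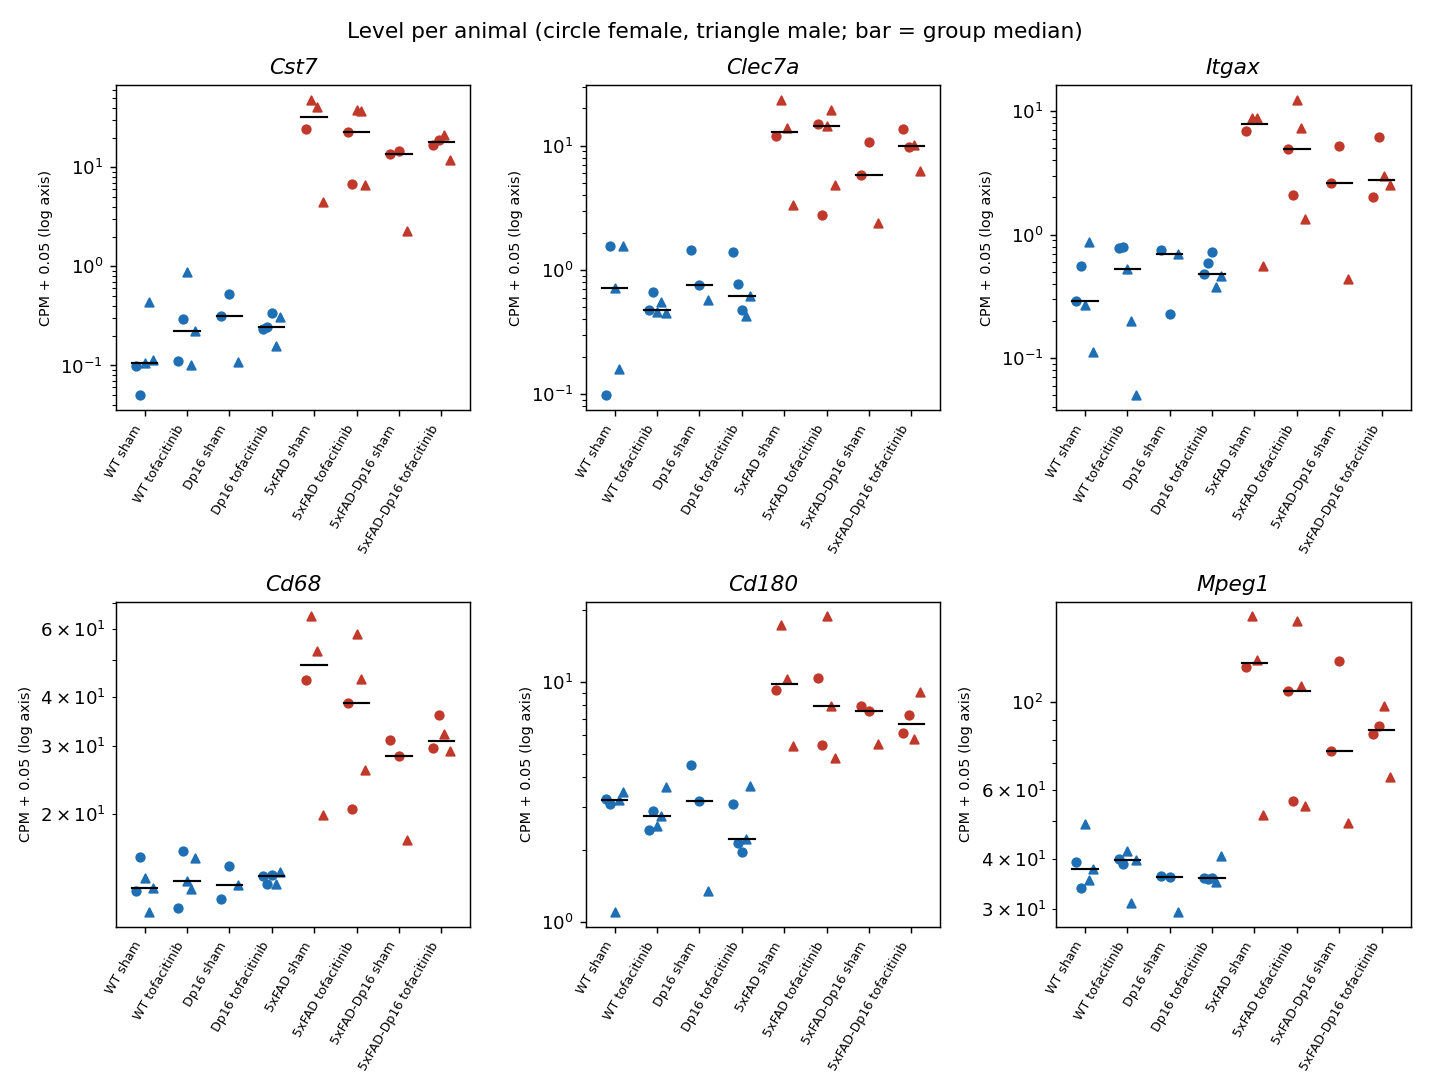
CPM plus 0.05 on a log axis for 6 genes, 1 point per animal (circle female, triangle male), by group, with the group median as a bar. Transgenic groups (red) lie above non-transgenic groups (blue) with no overlap for Cst7, Clec7a, Cd68, Cd180 and Mpeg1, while 2 transgenic animals overlap for Itgax.

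Cd22, a sialic acid binding lectin that restrains phagocytosis, was a low-abundance gene. It measured 1.24, 2.12, 1.56 and 0.339 CPM in 5xFAD sham animals, 1.68, 0.695, 3.16, 1.57 and 0.589 CPM in 5xFAD tofacitinib animals, 1.66, 2.96 and 0.494 CPM in 5xFAD-Dp16 sham animals and 0.0531, 1.29, 0.760 and 0.943 CPM in 5xFAD-Dp16 tofacitinib animals. Non-transgenic animals reached 0.828 CPM, 10 of 16 transgenic animals were above that, and the increase was 2.18 ± 0.42 (SE) on the log2 scale (adjusted p = 0.00181).

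Gpr84, a receptor for medium-chain fatty acids on myeloid cells, measured 4.24, 4.76, 3.69 and 2.15 CPM in 5xFAD sham, 2.57, 1.16, 4.91, 2.24 and 1.93 CPM in 5xFAD tofacitinib, 3.02, 2.17 and 1.76 CPM in 5xFAD-Dp16 sham and 2.50, 1.48, 1.14 and 1.53 CPM in 5xFAD-Dp16 tofacitinib animals. The highest non-transgenic animal, wild-type tofacitinib 1, had 1.88 CPM, and 11 of 16 transgenic animals were above it. The increase was 1.84 ± 0.22 (SE) on the log2 scale (adjusted p = 1.31e-06).

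Cd180, a relative of the Toll-like receptors, and Ly86, the partner that carries it to the surface, both rose. Cd180 measured 9.25, 17.2, 10.3 and 5.37 CPM in 5xFAD sham, 10.4, 5.44, 18.8, 7.93 and 4.77 CPM in 5xFAD tofacitinib, 7.91, 7.504 and 5.48 CPM in 5xFAD-Dp16 sham and 6.11, 7.23, 5.75 and 9.01 CPM in 5xFAD-Dp16 tofacitinib animals. All 16 were above the highest non-transgenic animal (4.47 CPM), and the increase was 1.59 ± 0.20 (SE) on the log2 scale (adjusted p = 4.05e-06). Cd180 overlaps the neuronal gene Mast4 on the other strand, with a median of 1094.5 counts, and the strand setting of the counting was not given, so reads of the pair may not have been told apart. Ly86 rose by 1.10 on the log2 scale, with 15 of 16 transgenic animals above all others.

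Cd52, a small surface glycoprotein of leukocytes, measured 5.84, 4.87, 5.48 and 1.70 CPM in 5xFAD sham, 6.83, 1.97, 7.94, 7.88 and 4.07 CPM in 5xFAD tofacitinib, 4.89, 6.65 and 3.57 CPM in 5xFAD-Dp16 sham and 9.61, 6.51, 6.13 and 2.12 CPM in 5xFAD-Dp16 tofacitinib animals. Non-transgenic animals reached 3.90 CPM, which 12 of the 16 exceeded, and the increase was 1.52 ± 0.24 (SE) on the log2 scale (adjusted p = 0.000119). Cd52 overlaps Crybg2 on the other strand (median 12 counts), and reads of that pair may not have been told apart. The remaining surface genes rose less. Cd84, a receptor of the SLAM family, rose by 0.96, Cd9, a tetraspanin, by 0.42, and Axl, a receptor tyrosine kinase for the bridging protein Gas6, by 0.24 on the log2 scale (adjusted p = 2.33e-05, 3.79e-05 and 0.00992). Axl and Cd9 had medians of 72.1 and 79.0 CPM in non-transgenic animals, where Clec7a had 0.549 CPM, and both had overlapping groups.

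Among the secreted proteins, Lyz2, the lysozyme of macrophages, rose by 1.03 (adjusted p = 0.00426), Igf1, a growth factor, by 0.46 (adjusted p = 0.0173) and Csf1, a ligand of the microglial survival receptor Csf1r, by 0.32 on the log2 scale (adjusted p = 0.013). The Igf1 call was lost when any 1 of 5xFAD sham 2, Dp16 sham 3 or 5xFAD-Dp16 sham 4 was left out, with adjusted p up to 0.0855, and without the 4 libraries with other region markers (adjusted p = 0.0721). Lgals3, galectin-3, differed by 0.88 ± 0.27 (SE, adjusted p = 0.121), and Spp1, osteopontin, by 0.64 ± 0.30 (SE, adjusted p = 0.446), and neither passed. Lgals3 did pass with DESeq2 (adjusted p = 0.0326), with surrogate variables (0.019), with no filter on low counts (0.0102) and without wild-type tofacitinib 4 (0.0212). Spp1 passed with no filter (adjusted p = 1.08e-08), while without 5xFAD-Dp16 sham 4 its difference was 0.13. Spp1 measured 80.4 CPM in 5xFAD-Dp16 sham 4 and between 4.65 and 20.03 CPM in the other 15 transgenic animals, against 4.35 to 14.1 CPM in non-transgenic ones. That library is 1 of the 3 with low hippocampal neuron markers, and its thalamus markers stood at 5.82 against 4.04 in the median library. Their part in its Spp1 level was not tested.

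The lysosomal and phagosomal genes split. Cybb, the catalytic subunit of the phagocyte NADPH oxidase, measured 2.95, 4.35, 3.11 and 1.70 CPM in 5xFAD sham, 2.57, 0.984, 4.39, 2.14 and 1.82 CPM in 5xFAD tofacitinib, 2.12, 4.02 and 3.02 CPM in 5xFAD-Dp16 sham and 3.45, 3.68, 3.09 and 4.12 CPM in 5xFAD-Dp16 tofacitinib animals. All but 5xFAD tofacitinib 2 were above the highest non-transgenic animal (1.53 CPM), and the increase was 1.89 ± 0.25 (SE) on the log2 scale (adjusted p = 7.49e-06). Slc15a3, a peptide and histidine transporter of endosomes, measured 8.27, 13.1, 9.86 and 5.60 CPM in 5xFAD sham, 6.83, 5.27, 15.4, 7.57 and 5.25 CPM in 5xFAD tofacitinib, 5.95, 6.45 and 2.69 CPM in 5xFAD-Dp16 sham and 5.04, 7.47, 6.84 and 6.60 CPM in 5xFAD-Dp16 tofacitinib animals. Only 5xFAD-Dp16 sham 4 fell within the non-transgenic range, whose top was 3.43 CPM, and the increase was 1.58 ± 0.17 (SE) on the log2 scale (adjusted p = 5.76e-07). Slc15a3 overlaps Tmem132a on the other strand (median 2443 counts).

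Cd68, a glycoprotein of macrophage lysosomes, measured 44.1, 64.5, 52.5 and 19.8 CPM in 5xFAD sham, 38.7, 20.6, 58.2, 44.4 and 25.9 CPM in 5xFAD tofacitinib, 30.99, 28.2 and 17.1 CPM in 5xFAD-Dp16 sham and 29.5, 35.9, 32.1 and 29.0 CPM in 5xFAD-Dp16 tofacitinib animals. Every one of these 16 was above the non-transgenic maximum of 15.97 CPM. Cd68 rose by 1.35 ± 0.13 (SE) and Mpeg1, the pore-forming protein perforin-2 of phagosomes, by 1.35 ± 0.15 (SE) on the log2 scale (adjusted p = 1.44e-07 and 1.31e-06), and Mpeg1 showed no overlap either. The lysosomal members that did not pass were Cd63, a tetraspanin of late endosomes, at 0.17 ± 0.09 (SE, adjusted p = 0.509) and Gpnmb, a lysosomal glycoprotein, at 0.11 ± 0.15 (SE, adjusted p = 0.856).

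Of the metabolic genes, Ch25h rose. This enzyme makes the oxysterol 25-hydroxycholesterol. It measured 1.71, 1.55, 1.10 and 0.622 CPM in 5xFAD sham, 1.62, 0.463, 1.48, 2.56 and 0.536 CPM in 5xFAD tofacitinib, 1.01, 0.329 and 0.274 CPM in 5xFAD-Dp16 sham and 0.425, 0.431, 1.19 and 1.18 CPM in 5xFAD-Dp16 tofacitinib animals. Non-transgenic animals reached 0.674 CPM, 9 of 16 transgenic animals exceeded it, and the increase was 1.79 ± 0.39 (SE) on the log2 scale (adjusted p = 0.00859). Ch25h overlaps Gm26902 on the other strand (median 19 counts), and reads of that pair may not have been told apart. Lpl, lipoprotein lipase, stood at 0.28 ± 0.18 (SE, adjusted p = 0.612), Cox6a2, a subunit of cytochrome c oxidase, at 0.06 ± 0.18 (adjusted p = 0.933), Ank, a pyrophosphate transporter, at 0.03 ± 0.04 (adjusted p = 0.82) and Fth1, the ferritin heavy chain, at -0.03 ± 0.05 (adjusted p = 0.877). Lpl was 4.50 CPM in 5xFAD-Dp16 sham 4 and between 17.3 and 54.9 CPM in the other transgenic animals. The Lpl difference passed with surrogate variables (0.36, adjusted p = 0.0319), with no filter (0.27, adjusted p = 0.00504) and without the 4 libraries with other region markers (0.43, adjusted p = 0.0423).

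Several of the genes that did not pass were abundant in animals without the transgene. On a length-corrected scale, the median RPKM in non-transgenic animals was 2823 for Fth1, 59.9 for Ank and 46.8 for Cd63, against 0.175 for Cst7, 0.239 for Clec7a and 0.102 for Itgax. The order is not strict, because Cd9 (64.2 RPKM) rose and Lgals3 (0.458 RPKM) did not pass. Among the remaining members, Capg, an actin capping protein, rose by 1.02 and the noncoding RNA AU020206 by 1.47 on the log2 scale (adjusted p = 2.44e-06 and 9.88e-07). Atp6v0d2 reached 0.392 CPM in transgenic and 0.0609 CPM in non-transgenic animals, and Lilrb4a was counted in 3 transgenic libraries at no more than 0.0579 CPM. Lilrb4a overlaps the gene model Gm49339 on the same strand, which held 0 counts in every library. Reads shared by such models may not have been assigned to either, so the low count may not show the level of Lilrb4a.

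**Figure D3:**
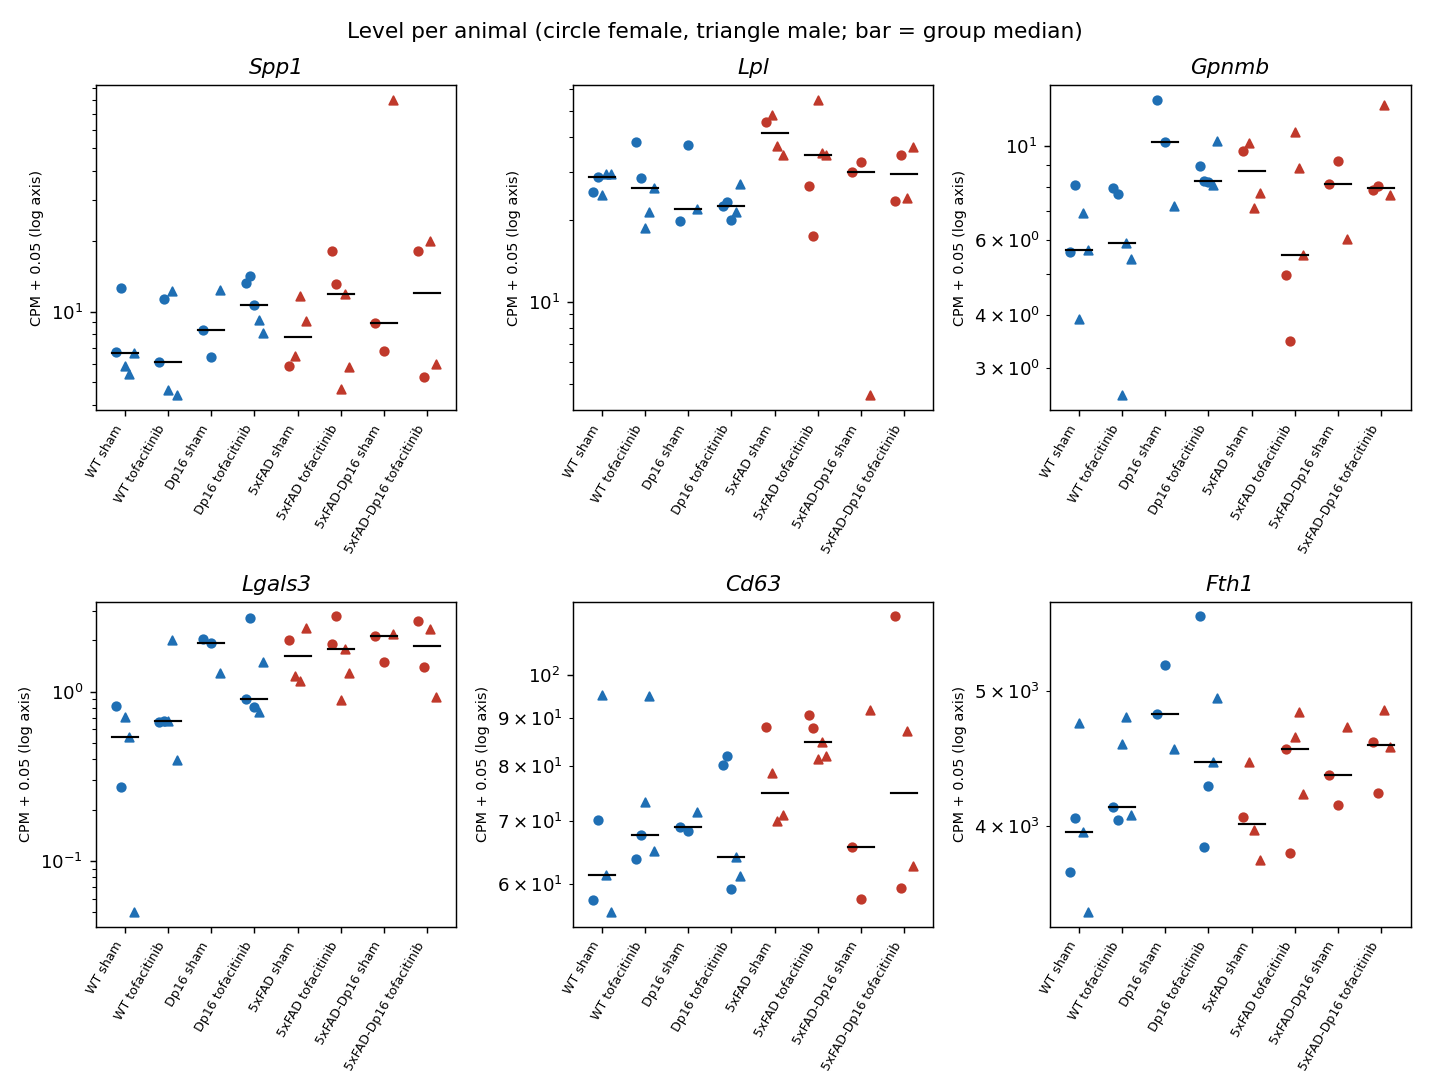
CPM plus 0.05 on a log axis for 6 genes that did not pass in the average over the 4 settings, 1 point per animal (circle female, triangle male), with the group median as a bar. Transgenic (red) and non-transgenic (blue) groups overlap for each, and 5xFAD-Dp16 sham 4 stands apart at 80.4 CPM for Spp1 and 4.50 CPM for Lpl.

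Complete separation of the animals was uncommon outside these genes. All 16 transgenic libraries were above all 18 others for 5 of the 29 members (Cst7, Clec7a, Cd68, Cd180 and Mpeg1) and for 9 of all 17518 genes (0.0514%). The other 4 were Thy1, the cathepsin Ctsz, the chemokine Ccl6 and Grn, the precursor of progranulin. Within the 4 settings, 13, 13, 14 and 14 members were separated (no segment on sham, segment on sham, no segment on tofacitinib, segment on tofacitinib), against 1.72%, 5.87%, 0.754% and 1.17% of all genes.

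Transgenic animals differed widely among themselves, and the genes tended to be high or low together in 1 animal. Of the 29 genes, 5xFAD sham 2 held the highest value of the 16 animals for 10 and 5xFAD tofacitinib 4 for 8. At the other end, 5xFAD sham 4 and 5xFAD-Dp16 sham 4 each held the lowest value for 9. The latter is also 1 of the 3 libraries low in hippocampal neuron markers. How often each library was highest or lowest over all genes was not counted, so these counts are not particular to the members. Cst7 measured 48.1 CPM in 5xFAD sham 2 and 4.47 CPM in 5xFAD sham 4, although both were male, on sham and without the segment. Plaque load was not analysed here.

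**Figure D4:**
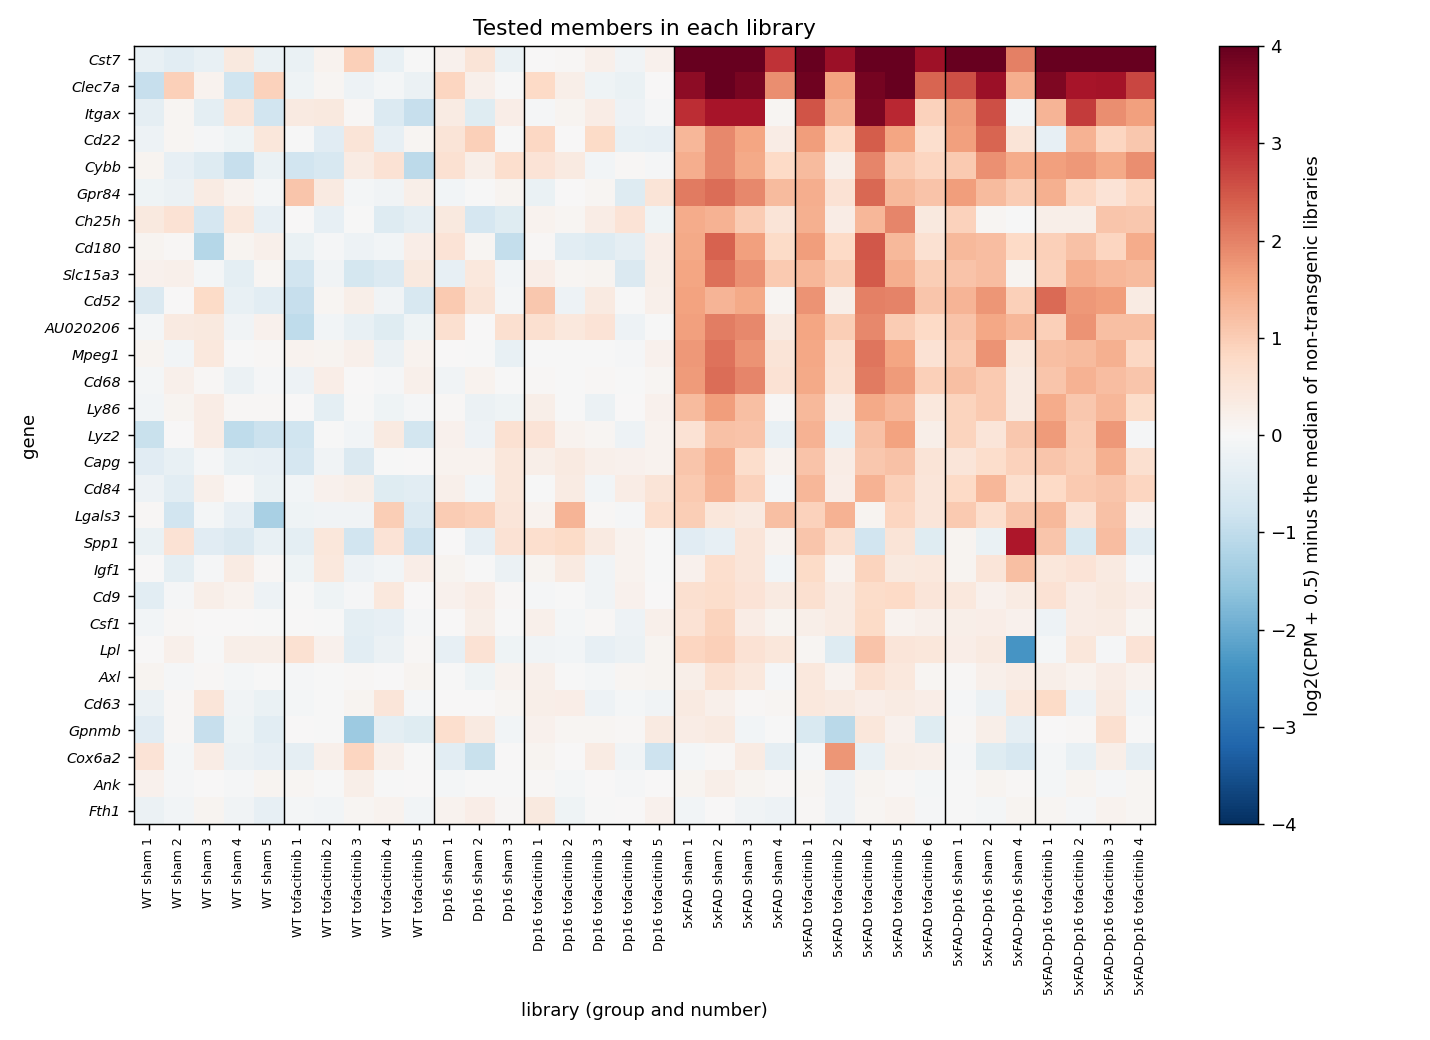
Colour shows log2(CPM + 0.5) minus the median of the non-transgenic libraries for the 29 tested genes (rows, ordered by the average transgene response) in the 34 libraries (columns, by group), limited to the range from -4 to 4, which Cst7 exceeds in many transgenic libraries. The columns of the transgenic groups are redder than the others. Among them 5xFAD sham 4, 5xFAD tofacitinib 2, 5xFAD tofacitinib 6 and 5xFAD-Dp16 sham 4 are paler than their neighbours. Spp1 is high and Lpl low in 5xFAD-Dp16 sham 4.

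The members rose beside other microglial genes. All 10 pan-myeloid genes tested (such as C1qa, a complement component, and Irf8, a myeloid transcription factor) were higher in transgenic animals, with a median log2 fold change of 0.78. Of 15 homeostatic microglia genes 10 were higher and none lower, with a median of 0.46. Cx3cr1, the fractalkine receptor, rose by 0.49, while P2ry12 and Tmem119 stood at 0.32 and 0.19 and did not pass (adjusted p = 0.0825 and 0.305). In the Trem2 axis 4 of 7 tested genes were higher, among them Trem2 itself (1.52) and its adaptor Tyrobp (1.19), while Apoe was at 0.09 (adjusted p = 0.574). Cathepsins were higher for 7 of 8 and chemokines for 6 of 8.

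Markers of other cells that could carry these transcripts were measured in the same fit. None of 8 border macrophage genes (among them Mrc1, Lyve1 and Cd163) passed, with a median of 0.05 and a summed level of 21.1 to 43.3 CPM in transgenic and 16.6 to 35.6 CPM in non-transgenic animals. Of 8 monocyte and neutrophil genes 4 could be tested and none passed, with sums of 0.112 to 4.72 CPM and 0.0616 to 2.90 CPM. Of 8 lymphocyte genes 1 could be tested and did not pass, with sums of 0.405 to 1.86 CPM and 0.112 to 1.35 CPM. No marker of these lists was at 0 in every library, but Chil3, Camp, Cd3d and Cd8a were among those that had a median of 0 CPM. Of 6 astrocyte genes Gfap rose (0.75, adjusted p = 0.0351), and no oligodendrocyte, endothelial or choroid plexus gene passed. Summed pan-myeloid levels ran from 312 to 849 CPM in transgenic and from 263 to 347 CPM in non-transgenic animals.

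The transgene response was then taken in each setting. Without the segment, 14 of 29 genes were higher on sham (background 0.445% of all genes) and 13 on tofacitinib (background 0.308% higher and 0.0114% lower), with medians of 1.37 and 1.21 on the log2 scale. With the segment, no gene passed on sham (background 0%), where no gene of the genome-wide table passed either, and 2 passed on tofacitinib, Cst7 and Clec7a (background 0.0285%), with medians of 0.92 and 1.03. At an unadjusted p under 0.05 stood 14 of 29 members on sham with the segment, beside 7.28% of all genes, and DESeq2 called 1 member there. On sham without the segment 21 of 29 did (5.09% of all genes), on tofacitinib without the segment 21 (7.35%) and on tofacitinib with the segment 16 (2.59%). The counts cannot be set against each other as sizes of the response. The segment groups on sham hold 3 animals each. On tofacitinib with the segment the groups (5 Dp16 and 4 5xFAD-Dp16) were as large as those on sham without it (5 wild-type and 4 5xFAD). What made the counts differ was not tested. The direction was above 0 for 28, 28, 25 and 27 of the 29 in no segment sham, no segment tofacitinib, segment sham and segment tofacitinib. Of all genes, 50.5%, 51.8%, 51% and 49.6% were above 0 in that order.

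Several of these counts moved with single libraries or with the fit. On sham without the segment the count was 5 without 5xFAD sham 2 and 3 when the compared groups were fitted alone. On tofacitinib without the segment it was 6 without wild-type tofacitinib 2 or without 5xFAD tofacitinib 4, 7 without 5xFAD tofacitinib 1 or 5, 8 without wild-type tofacitinib 1, 4 or 5, and 0 when the groups were fitted alone. On tofacitinib with the segment it was 1 without Dp16 tofacitinib 3 or 4, 4 without 5xFAD tofacitinib 2, 5 without 5xFAD sham 4 and 9 when the groups were fitted alone. The average over the 4 settings stayed between 20 and 22 members when any 1 library was left out. Without the 3 libraries low in hippocampal markers it was 21, and without those and 5xFAD-Dp16 tofacitinib 1 it was also 21, of which 20 were among the 21 called with all libraries, with Igf1 lost and Lpl gained.

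Whether the segment changes the response was asked by the difference of responses, with minus without the segment, averaged over both treatments. No member passed (edgeR, smallest adjusted p = 0.942, background 0%, 6 of 29 at an unadjusted p under 0.05 beside 4.86% of all genes). The difference was below 0 for 26 of the 29, beside 50.1% of all genes, with a median of -0.43. Because the members tended to be high or low together in an animal, a few animals can set many of these signs. The count of signs is therefore descriptive and was not tested. The median response of the 29 genes was 1.32 without and 0.98 with the segment.

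Cst7 responded by 7.19 without and by 5.77 with the segment on the log2 scale, a difference of -1.42 with a 95% interval of -3.47 to 0.64. For Clec7a the responses were 4.39 and 3.33 (difference -1.05, interval -2.41 to 0.30), and for Itgax 3.98 and 2.56 (difference -1.42, interval -3.06 to 0.22). The intervals therefore reach from large reductions to small increases, and they do not show that the responses are alike. The smallest unadjusted p belonged to Csf1 (-0.39 ± 0.15 SE), Cd9 (-0.32 ± 0.12) and Capg (-0.60 ± 0.24), each with an adjusted p of 0.942. Csf1 measured 38.1, 48.1, 31.6 and 27.7 CPM in 5xFAD sham and 30.2, 31.9, 44.2, 28.4 and 29.3 CPM in 5xFAD tofacitinib animals. It measured 30.04, 30.5 and 29.0 CPM in 5xFAD-Dp16 sham and 22.4, 31.3, 32.4 and 27.0 CPM in 5xFAD-Dp16 tofacitinib animals, within or below the 5xFAD range, while non-transgenic animals lay between 19.3 and 29.9 CPM. Capg measured between 3.56 and 9.68 CPM in 5xFAD and between 4.69 and 9.28 CPM in 5xFAD-Dp16 animals. In non-transgenic animals it lay between 1.82 and 3.20 CPM in wild type and between 3.52 and 4.52 CPM in Dp16, with no overlap.

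Other lists lay on either side of 0 in this comparison. The difference was below 0 for 10 of 10 pan-myeloid genes (median -0.32), 15 of 15 homeostatic microglia genes (median -0.27), 12 of 12 hippocampal neuron genes (median -0.30) and 6 of 6 choroid plexus genes (median -1.82). Only 1 of 8 cathepsins (median -0.25), 1 of 7 tested Trem2 axis genes (median -0.20) and 2 of 8 tested chemokines (median -0.34) were above 0. The difference was above 0 for 6 of 8 border macrophage genes (median 0.58), 6 of 7 thalamus genes (0.35), 4 of 6 striatum genes (0.36), 5 of 6 neocortex genes (0.27) and 5 of 6 oligodendrocyte genes (0.07). No gene of these lists passed. Their part in the members' result was not tested. Without the 3 libraries low in hippocampal markers the difference was below 0 for 28 of the 29 members, and without those and 5xFAD-Dp16 tofacitinib 1 for 27. With any 1 library left out the median lay between -0.54 and -0.30. With no filter on low counts, Cst7 and Cd68 passed (both below 0). The Cst7 difference was -1.42 there too, and only its SE was smaller, at 0.36. That setting also gave Spp1 an adjusted p of 1.38e-18 (edgeR) for 5xFAD-Dp16 minus 5xFAD on sham. Without 5xFAD-Dp16 sham 4 that Spp1 difference was -0.30, so calls made with no filter can rest on 1 library.

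**Figure D5:**
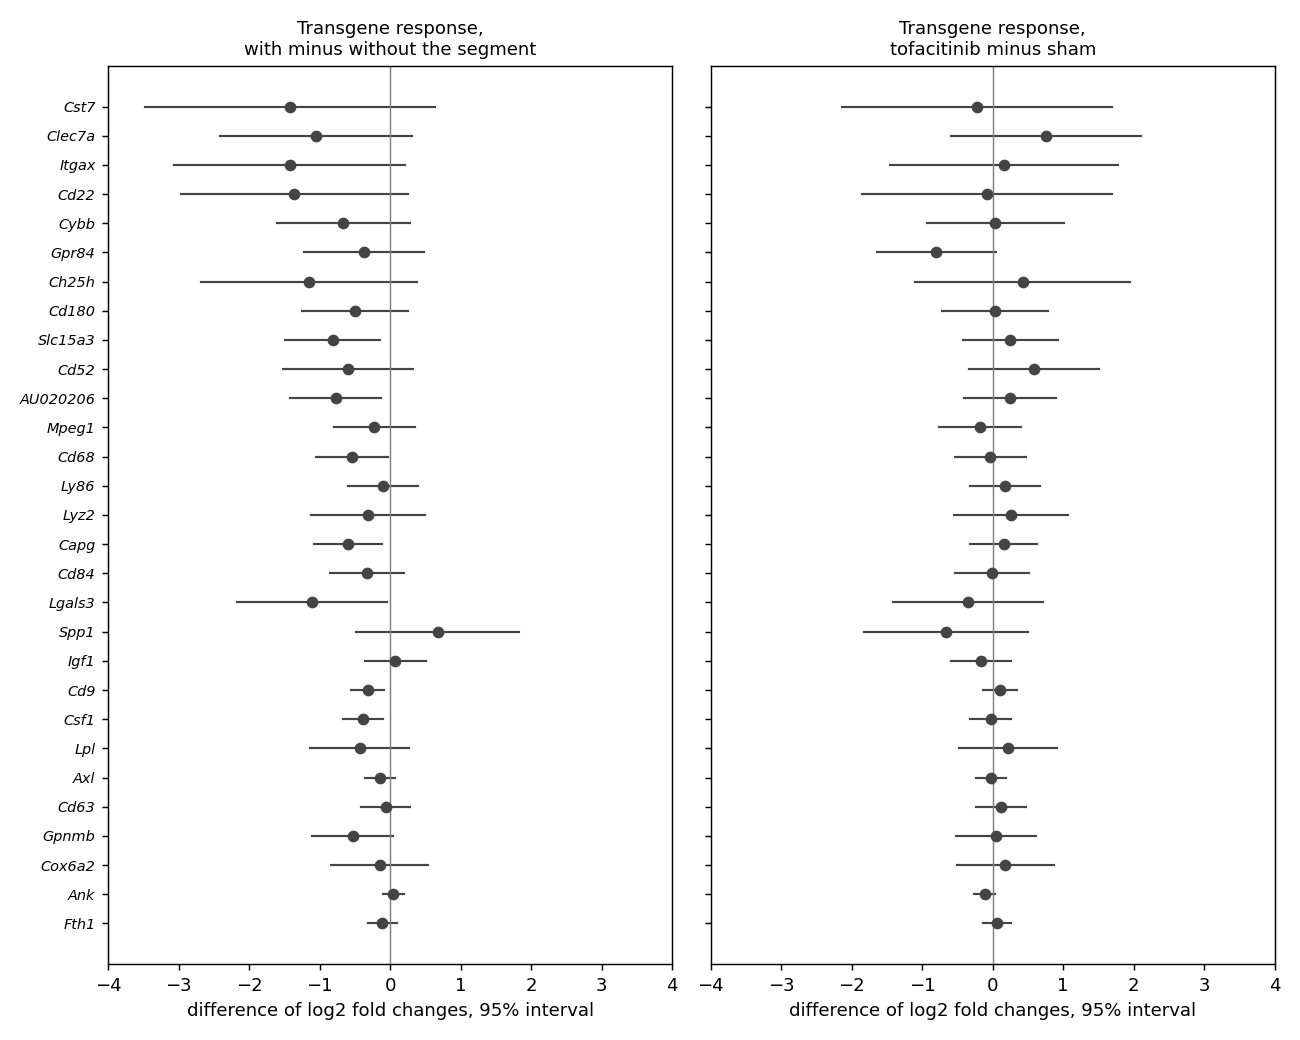
Difference of log2 transgene responses with its 95% interval for the 29 tested genes, ordered by their average response, with minus without the segment (left) and on tofacitinib minus on sham (right). On the left 26 points lie below 0 and most intervals cross it, and on the right the points scatter around 0.

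The segment was also compared within transgenic animals. On sham, 5xFAD-Dp16 minus 5xFAD was below 0 for 20 of 29 members, beside 50% of all genes (median -0.22). No member passed (background 0.268%, 0.0171% for lower, and 4 at an unadjusted p under 0.05 beside 11.5% of all genes). The smallest p were those of Spp1 (1.964, adjusted p = 0.23), Cd68 (-0.84 ± 0.29 SE, adjusted p = 0.265) and Lpl (-0.98 ± 0.41, adjusted p = 0.372). Without 5xFAD-Dp16 sham 4, the Spp1 difference turned to -0.30, so its sign rested on that library, and those of Lpl and Cd68 were -0.39 and -0.57. In the same comparison the homeostatic microglia genes were below 0 for 15 of 15 (median -0.50, 11 at an unadjusted p under 0.05), pan-myeloid genes for 10 of 10 (median -0.40) and hippocampal neuron genes for 12 of 12 (median -0.45). Oligodendrocyte genes were above 0 for 6 of 6 (median 0.80, 6 at an unadjusted p under 0.05) and thalamus genes for 6 of 7 (median 1.10). No gene of these lists passed, and their part in the members' values was not tested. Cd68 in 5xFAD sham animals had a mean of 45.3 ± 18.9 CPM (SD, n = 4), and in 5xFAD-Dp16 sham animals 25.4 ± 7.37 CPM (SD, n = 3), where 5xFAD sham 4 lay below 2 of the latter. On tofacitinib the same difference gave no member that passed (background 0.217%, 0.0114% for lower, and 1 unadjusted beside 4.94%, Cox6a2 at -0.71 and at -0.16 without 5xFAD tofacitinib 2), with a median of -0.20 and with Cd68 at -0.25 and Cst7 at -0.35. The next smallest p there were those of Cd9 (-0.21) and Gpr84 (-0.64), with an adjusted p of 0.999.

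In animals without the transgene, most members were above 0. Dp16 minus wild type, averaged over both treatments, was above 0 for 20 of 29, beside 49.5% of all genes (median 0.21). These signs are not independent of each other and were not tested as a set. No member passed (background 0.839%, 6 at an unadjusted p under 0.05 beside 10.3% of all genes). The smallest p were those of Capg (0.61 ± 0.17 SE, adjusted p = 0.117), Gpnmb (0.64 ± 0.20, adjusted p = 0.176) and Lgals3 (1.201 ± 0.39, adjusted p = 0.198). Capg measured 2.16, 2.47, 3.03, 2.46 and 2.44 CPM in wild-type sham and 1.82, 2.84, 1.99, 3.15 and 3.20 CPM in wild-type tofacitinib animals. In Dp16 animals it measured 3.56, 3.55 and 4.52 CPM on sham and 3.83, 4.17, 3.73, 3.63 and 3.52 CPM on tofacitinib, above every wild-type animal. Lgals3 measured 1.99, 1.89 and 1.23 CPM in Dp16 sham animals and 0.768, 0.225, 0.660, 0.493 and 0 CPM in wild-type sham animals. On tofacitinib the groups overlapped, with 0.852, 2.67, 0.764, 0.704 and 1.45 CPM in Dp16 and 0.607, 0.616, 0.617, 1.95 and 0.343 CPM in wild-type animals. Gpnmb measured 12.8, 10.2 and 7.16 CPM in Dp16 sham and between 3.85 and 8.03 CPM in wild-type sham animals, and between 8.02 and 10.2 CPM in Dp16 and 2.54 and 7.89 CPM in wild-type animals on tofacitinib. Choroid plexus markers had a mean log2 level of 5.55 in Dp16 sham and 2.99 in wild-type sham animals, and of 3.90 and 3.41 on tofacitinib, and their part in these differences was not tested. This comparison and the one on the response share the Dp16 and wild-type animals.

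Tofacitinib did not give a detectable change of the response. The difference of responses, tofacitinib minus sham, averaged over both segment states, passed for no member (edgeR, background 0%, 0 of 29 at an unadjusted p under 0.05 beside 1.85% of all genes, and 0 called by DESeq2). It was above 0 for 17 of 29, beside 49.1% of all genes, with a median of 0.05, and the median response was 1.01 on sham and 1.16 on tofacitinib. Cst7 differed by -0.23 with a 95% interval of -2.14 to 1.69, Clec7a by 0.75 (interval -0.60 to 2.099) and Cd68 by -0.03 (interval -0.54 to 0.47). For Cst7 and Clec7a these intervals still hold changes of several fold, while for Cd68 they are narrower. The smallest p were those of Gpr84 (-0.80 ± 0.43 SE), whose response was 2.24 on sham and 1.44 on tofacitinib, Ank (-0.11) and Cd52 (0.59), with adjusted p of 1.

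Within 5xFAD animals, tofacitinib minus sham passed for no member (background 0%, 0 at an unadjusted p under 0.05 beside 5.81%, median -0.11), with the smallest p for Ank (-0.13), Cox6a2 (0.54) and Gpr84 (-0.54), whose adjusted p was 0.788, 0.788 and 0.789. Without 5xFAD tofacitinib 2, where Cox6a2 was 21.4 CPM against 4.78 to 7.10 CPM in the other 4, these differences were -0.0761, 0.039 and -0.34. Within 5xFAD-Dp16 animals none passed either (background 0%, 1 unadjusted beside 7.46%, median 0.18). That 1 was Spp1 (-1.37, adjusted p = 0.668), and Ly86 (0.40, adjusted p = 0.74) and Igf1 (-0.34, adjusted p = 0.742) came next. Without 5xFAD-Dp16 sham 4, Spp1 turned to 0.81 and Igf1 to 0.0509, and Ly86 was 0.21. In animals without the transgene the drug gave no call (background 0%, 0 unadjusted beside 2.28%, median 0.01), with the smallest p for AU020206 (-0.43), Cox6a2 (0.27) and Gpr84 (0.30), all with an adjusted p of 1. The difference of the segment's effect on the response between treatments also passed for no member (background 0%, 0 unadjusted beside 3.23%), with the smallest p for Spp1 (-2.01), Igf1 (-0.65) and Cybb (1.38), all with an adjusted p of 0.998. Without 5xFAD-Dp16 sham 4, Spp1 turned to 0.34 and Igf1 was -0.27, and without the 3 libraries low in hippocampal markers Spp1 was 0.45. Cybb was 0.86 without wild-type tofacitinib 4.

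The response was also taken by sex. Over the 29 genes its median was 1.00 in males and 1.10 in females, and Cst7 rose by 6.37 and 6.59 on the log2 scale. The difference, female minus male, passed for no member (background 0%), and 1 had an unadjusted p under 0.05 beside 1.73% of all genes: Gpnmb, at -0.63 ± 0.28 (SE, adjusted p = 1). Spp1 (-0.77) and Ch25h (-0.98) came next, also with an adjusted p of 1. DESeq2 called no member in the comparisons on the segment, the drug or sex described here.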

How the data were processed

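Polyadenylated RNA of the hippocampus of 34 mice was sequenced with a strand-specific kit as paired reads of 150 bp, per the labels' protocols. The authors deposited whole-number counts per gene and RPKM values for 55385 genes. Per the submitters' processing notes, which give no roles, the build was GRCm38 and the tools were HTSeq 0.6.1, HISAT2 2.1.0, SAMtools 1.5, bcl2fastq and FastQC 0.11.5. The sources used here do not say which strand was counted. The deposited RPKM values equalled count over library total over length to a relative deviation of 6.66e-16 in 12463 genes. Gene coordinates came from GENCODE release 21 of that build.

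Counts were tested with edgeR 4.0.16 (R 4.3.3; TMM scaling, filterByExpr, robust quasi-likelihood test) in 1 fit over all 34 libraries, with 8 group means and sex, and 25 residual degrees of freedom. P-values were adjusted by Benjamini-Hochberg over 17518 genes, with a threshold of 0.05, and measure only the spread between these animals. The SE of an edgeR result was derived from its test, as the absolute log2 fold change over the square root of the F statistic. Intervals are normal 95% intervals, 1.96 times that SE on either side. For genes near 0 in some groups they are approximate. CPM are counts per 1000000 of the TMM-scaled library of the tested genes. The fit was run on simulated counts, with changes planted in well-counted genes and each gene drawn independently. That run does not cover genes near 0 in non-transgenic animals or genes that move together. Alternatives used DESeq2 1.42.0, sva 3.50.0 with 2 surrogate variables, no filter, no sex term, the compared groups alone, a block for the replicate number, and left-out libraries. Leaving out 4 libraries with markers of other regions was chosen after seeing the data.

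The members and all gene lists were chosen with earlier results of these data known. Every member is accounted for. Values by animal are given for members that passed and had the 10 largest changes, and for others that a result turns on; where no member passed, the 3 smallest p are named. Mpeg1, Cd68, Capg, Csf1, Lgals3, Gpnmb, Spp1 and Lpl were given in detail after their values were seen. The promoter motifs were chosen with the members' results known. The design text names 1 more animal each for 5xFAD on tofacitinib and 5xFAD-Dp16 on sham, not analysed here. Some items are not reported here.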

Additional observations from a re-analysis of the deposited data

Results flagged for a closer look

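In groups of 4 or 5 animals, 13 of 174 values by gene and group held 1 animal far from the rest (Dixon's gap test at 95%). For normally distributed values chance alone passes it in about 1 of 20 groups, a rate that need not hold for counts near 0. Among wild-type sham animals, Cd180 was 1.05 CPM in animal 3 against 3.03 to 3.44 in the others. Cst7 was 0.383 CPM (7 counts) in wild-type sham 4 against 0 to 0.0626 (0 or 1 count) in the others. Spp1 was 12.5 CPM in wild-type sham 2 against 5.36 to 6.67.

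On tofacitinib, wild-type animal 4 stood apart for 3 genes. Its Cd9 level was 106 CPM against 70.8 to 80.0, its Lgals3 level 1.95 CPM against 0.343 to 0.617, and its Mpeg1 level 30.9 CPM against 39.0 to 42.0. Wild-type tofacitinib 3, a library low in hippocampal neuron markers, had 0.823 CPM of Cst7 (12 counts) against 0.0501 to 0.247 (1 to 4 counts). In Dp16 tofacitinib animals, Slc15a3 was 1.46 CPM in animal 4 against 2.62 to 3.04, and Mpeg1 was 40.8 CPM in animal 5 against 35.0 to 35.9.

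Among transgenic animals, 5xFAD tofacitinib 4 was high for Csf1 (44.2 CPM against 28.4 to 31.9) and for Slc15a3 (15.4 CPM against 5.25 to 7.57). Cox6a2 was 21.4 CPM in 5xFAD tofacitinib 2 against 4.78 to 7.10, in a library with raised striatum markers (mean log2 level 7.06 against 3.16 in the median library), whose part in this value was not tested. Gpnmb was 12.4 CPM in 5xFAD-Dp16 tofacitinib 3 against 7.60 to 7.99.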

How the results depend on the processing

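Averaged over the 4 settings, 21 members rose, and the count was 21 with DESeq2 size factors, without the sex term and without the 3 or the 4 libraries with other region markers, 22 with DESeq2, 23 with surrogate variables, 25 with no filter (884 genes called of 31281 tested) and 20 to 22 with any 1 library left out. The replicate numbers do not pair the animals (98 same-numbered pairs, median correlation 0.0176, 6 of 33 libraries best matched by their own number), and with the replicate block 19 members rose, Csf1 and Igf1 being lost. On sham without the segment (14 members) the count was 8 with the block, 3 with the groups alone and 5 to 16 with 1 library left out. On sham with the segment (0) it was 10 with no filter, 1 with DESeq2, surrogate variables, without the 3 or 4 libraries and with the groups alone, and 0 to 1 with 1 library left out. On tofacitinib without the segment (13) it was 0 with the groups alone and 6 to 16 with 1 library left out. On tofacitinib with the segment (2) it was 12 with no filter, 8 with DESeq2, 7 with surrogate variables, 4 without the 3 libraries, 9 with the groups alone and 1 to 5 with 1 library left out. With no filter, counts that were 0 became 2 for the response by segment (Cst7, Cd68), 2 for the response by segment and drug (Cst7, Spp1), 7 for the segment in 5xFAD on sham, 1 for the drug in 5xFAD-Dp16 (Spp1), 3 for the segment without the transgene (Lgals3, Lyz2, Gpnmb; 0 to 1 with 1 library left out, the 1 without wild-type tofacitinib 4) and 1 for sex (Spp1). The calls with no filter included Spp1 differences that turned sign without 5xFAD-Dp16 sham 4. Signs turned for members that did not pass. The average Cox6a2 response was -0.0437 with surrogate variables, and -0.088 (without 5xFAD tofacitinib 2) to 0.165 with 1 library left out, turning to -0.0029 without Dp16 sham 2. The Ch25h response by segment ran from -1.55 to 0.10 (without Dp16 sham 1). Without the 3 libraries, the 4 libraries and 5xFAD-Dp16 sham 4 alone, Spp1 was 0.45, 0.19 and 0.34 for the response by segment and drug (lowest -2.45 with 1 library left out), -0.25, -0.20 and -0.30 for the segment in 5xFAD on sham (highest 2.44), and 0.78, 0.54 and 0.81 for the drug in 5xFAD-Dp16 (lowest -1.88), where Igf1 was 0.0602, 0.0236 and 0.0509 (lowest -0.557). The cause was not tested. Of the values of single members, 4125 kept their direction and side of the threshold, 114 lost and 28 gained the call, and 16 turned. Groups of 3 to 5 animals and counts near 0 in animals without the transgene limit the differences of responses.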
